A study of Mus musculus with 24 samples.

Results

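The loss of NEMO was examined in livers that already lack KEAP1, by comparing the 3 liver arrays of NEMOΔhepa/KEAP1Δhepa mice, called double knockout here, with the 3 liver arrays of KEAP1Δhepa mice, called KEAP1 knockout, together 6 of the 24 arrays of the series. The arrays were chosen by their genotype and tissue labels. All mice were 8-week-old males. In the double knockout mice a Cre transgene driven by albumin and alpha-fetoprotein control elements (Alfp-Cre) deleted floxed NEMO and floxed KEAP1 alleles, and in the KEAP1 knockout mice it deleted floxed KEAP1. Both groups therefore carry Cre and lack KEAP1, and NEMO is the gene that differs. The other arrays used for comparison were NEMO knockout livers (NEMOΔhepa), control livers (NEMOf/f) and primary hepatocytes of the double knockout, KEAP1 knockout and NEMO knockout genotypes, kept in culture until the next day, with 3 arrays each. A whole liver also holds bile duct, stellate, endothelial and immune cells, and fewer cells of a type cannot be told apart from less RNA per cell. Whether the KEAP1 knockout mice carry floxed NEMO is not stated in the labels.

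NEMO, encoded by the X-linked gene Ikbkg, is the regulatory subunit of the IkB kinase complex, which frees NF-kB to enter the nucleus and switch on genes of inflammation and cell survival. Mice without NEMO in hepatocytes are known for hepatocyte death, steatohepatitis, fibrosis and liver tumours. KEAP1 marks the transcription factor NRF2 (Nfe2l2) for degradation, so its loss leaves NRF2 free to drive antioxidant and detoxification genes.

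One double knockout array stood apart. Double knockout 3 carried the fat cell hormone Adipoq at a log2 level of 7.17, against 2.32 and 2.54 on double knockouts 1 and 2 and 2.33 to 2.58 on the KEAP1 knockouts. Uncoupling protein 1 of brown fat (Ucp1) was at 6.74 there, and 2.55, 2.56 and 2.29 to 2.93 on the other arrays. Of the 16 fat cell markers measured, 7 were more than 1 log2 unit above every other liver array on double knockout 3, as were 5 of 14 bile duct markers, 3 of 15 markers of mesothelium, muscle and gut, and 3 of 27 matrix genes. In all, 153 genes were more than 2 log2 units above the mean of double knockouts 1 and 2 on this array, and 4 were as far below. Results are given with and without it. Among control livers, the array labelled control 3 had the NRF2 targets Slc7a11 and Nqo1 at 9.29 and 9.17, against 2.63 and 2.42, and 4.71 and 5.37, on controls 1 and 2, so that array goes against its label. It enters none of the main comparisons below except the one across 4 genotypes, which is also given without it. It also enters an alternative fit of the liver contrast on all 12 liver arrays. Hepatocyte double knockout 3 had the female transcript Xist at 9.76, against 2.42 to 2.98 on the hepatocyte double knockouts 1 and 2 and the KEAP1 knockouts, although the mice are labelled male. The hepatocyte markers Alb (albumin) and Apoa1 were at 13.16 to 13.19 and 12.77 to 12.85 in double knockout livers and at 13.16 to 13.23 and 12.74 to 12.87 in KEAP1 knockout livers.

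The targeted gene followed the labels. Ikbkg was at a log2 level of 6.18, 6.47 and 6.31 in double knockout livers and at 6.96, 7.20 and 7.14 in KEAP1 knockout livers. The groups did not overlap, and the change of -0.78 ± 0.11 (SE, n = 3 per group) had an adjusted p of 0.0623 (limma, Benjamini-Hochberg over 18820 genes), short of the 0.05 used for a call. Without double knockout 3 it was -0.77 (adjusted p = 0.0752). In cultured hepatocytes the same contrast gave -0.80 ± 0.12 and passed (adjusted p = 0.00491). Keap1 was at 5.93, 5.75 and 5.82 in double knockout livers and at 5.47, 5.38 and 5.76 in KEAP1 knockout livers (change 0.30, adjusted p = 0.52). Nfe2l2 was at 8.45, 8.48 and 8.83 in double knockouts and 8.43, 8.47 and 8.34 in KEAP1 knockouts. Both levels are a limited check, since the probes may cover exons that Cre leaves in place.

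Of 18820 genes, 3 were called in double knockout against KEAP1 knockout liver, 2 higher (0.0106% of the genes tested) and 1 lower (0.00531%), or 0.0159% in all. The 2 that rose were Slc20a1, a sodium-coupled phosphate importer, and Srxn1, the sulfiredoxin that restores over-oxidised peroxiredoxins and a known NRF2 target. The 1 that fell was Serpina12, the secreted serine protease inhibitor vaspin. At an unadjusted p under 0.05 there were 1832 genes, 9.73% of those tested. Without double knockout 3 the count of called genes was 6 (0.0319%), and it still held these 3. Leaving out NEMO knockout 3, which enters only through the shared estimate of the spread, gave 33 calls, and leaving out KEAP1 knockout 1 or double knockout 1 gave 1, Slc20a1.

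Slc20a1 was at log2 levels of 8.71, 8.58 and 8.63 in double knockout livers, against 7.59, 7.36 and 7.51 in KEAP1 knockout livers. Every double knockout array was about a full log2 unit above the highest KEAP1 knockout array. The change was 1.15 ± 0.09, or 2.22-fold (adjusted p = 0.00158, limma), and 1.16 without double knockout 3 (adjusted p = 0.00213). Cultured double knockout hepatocytes had 9.31, 9.35 and 9.40, against 7.64, 7.85 and 8.46 in KEAP1 knockout hepatocytes, a change of 1.37 ± 0.20 (adjusted p = 0.00352). Slc20a1 was called under all of the 9 settings that left out 1 array.

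Srxn1 was at 9.70, 9.56 and 9.69 in double knockout livers and at 8.80, 8.89 and 8.92 in KEAP1 knockout livers. The spread within either group was under 0.2 log2 units. The change was 0.78 ± 0.09, or 1.72-fold (adjusted p = 0.0346, limma), and 0.76 without double knockout 3 (adjusted p = 0.048). In hepatocytes it was 1.24 ± 0.15 (adjusted p = 0.00183). The liver call was kept in 3 of the 9 settings that left out 1 array and lost without KEAP1 knockout 1, 2 or 3, NEMO knockout 1 or double knockout 1 or 2, with an adjusted p of up to 0.194. Over all 9 the change stayed between 0.75 and 0.83.

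Serpina12 was at 4.75, 4.61 and 4.98 in double knockout livers, against 6.98, 6.68 and 7.32 in KEAP1 knockout livers. It was lower on all 3 double knockout arrays, by 2.21 ± 0.22 log2 units on average, which is a 4.63-fold lower level (adjusted p = 0.0127, limma). Without double knockout 3 the change was -2.31 (adjusted p = 0.00725). Hepatocytes had 5.22, 4.64 and 4.24 in the double knockout and 7.34, 7.39 and 7.30 in the KEAP1 knockout (change -2.64 ± 0.24, adjusted p = 0.000391). Leaving out KEAP1 knockout 1 ended the liver call (adjusted p = 0.0703), as did leaving out either of the first 2 double knockouts (0.112 without double knockout 1 and 0.0566 without double knockout 2).

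The regions just before the annotated starts of the 3 called genes are shown because all 3 changed the same way in liver and in hepatocytes. Each is the 250 bases before the start, from RefSeq on GRCm38.p6, 5′ to 3′. Capitals mark matches to TGACNNNGC, the core of the antioxidant response element that NRF2 binds, or to TGANTCA, the AP-1 site, on either strand. The 2 motifs can share the letters TGACTCA.
Srxn1 (chr2:152105274-152105523, plus strand): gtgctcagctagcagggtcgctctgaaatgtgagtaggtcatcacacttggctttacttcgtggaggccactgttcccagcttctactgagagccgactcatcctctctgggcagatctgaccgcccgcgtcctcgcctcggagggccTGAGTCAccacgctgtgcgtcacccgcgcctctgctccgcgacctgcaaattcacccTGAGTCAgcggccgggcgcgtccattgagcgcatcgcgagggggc
Slc20a1 (chr2:129198523-129198772, plus strand): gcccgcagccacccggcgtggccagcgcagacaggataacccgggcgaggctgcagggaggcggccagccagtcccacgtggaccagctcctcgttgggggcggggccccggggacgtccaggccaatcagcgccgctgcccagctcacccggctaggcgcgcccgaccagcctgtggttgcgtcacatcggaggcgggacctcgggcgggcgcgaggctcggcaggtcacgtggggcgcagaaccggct
Serpina12 (chr12:104044444-104044693, minus strand): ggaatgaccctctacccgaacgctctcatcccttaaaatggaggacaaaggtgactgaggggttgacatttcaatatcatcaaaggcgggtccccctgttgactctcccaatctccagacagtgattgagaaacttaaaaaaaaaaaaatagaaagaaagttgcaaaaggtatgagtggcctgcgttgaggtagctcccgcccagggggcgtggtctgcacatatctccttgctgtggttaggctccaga
The Srxn1 window held TGAGTCA at 102 to 96 and again at 45 to 39 bases before the start. The nearer match reads TGAGTCAGC with the next letters and differs from TGACNNNGC in a single letter, so it was not counted for that motif. The search therefore does not show that the Srxn1 window lacks a site for NRF2. The windows of Slc20a1 at the start shown and of Serpina12 held neither motif. A second annotated Slc20a1 start had GCTGCGTCA, a match to the antioxidant response element on the minus strand, at 165 to 157 bases before it. Of the 14749 measured genes with such a window, 12.7% held the antioxidant response element core and 6.98% the AP-1 site in any of their windows. These are matches of letters, not evidence of binding.

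A further 9 genes had an adjusted p between 0.05 and 0.10, so 12 in all (0.0638% of those tested) lay under 0.10, a threshold added after the count of 3 had been seen. Of the 12, 8 were higher (0.0425%) and 4 lower (0.0213%); besides Ikbkg, 6 of the further 9 were higher and 2 lower. Slc7a11, the cystine importer that feeds glutathione synthesis and a known NRF2 target, was at 9.87, 9.62 and 10.23 in double knockouts, against 7.82, 8.53 and 8.50 in KEAP1 knockouts (change 1.62 ± 0.21, adjusted p = 0.0534). Marco, a scavenger receptor of macrophages, was at 7.45, 7.31 and 7.49 in double knockouts, against 6.23, 5.88 and 5.60 in KEAP1 knockouts (change 1.52 ± 0.19, adjusted p = 0.0526). In both genes the lowest double knockout array was above the highest KEAP1 knockout array by more than 1 log2 unit. Lpl, the lipoprotein lipase, was at 9.64, 9.10 and 9.86 in double knockouts and 8.35, 8.03 and 8.05 in KEAP1 knockouts. Slc1a4, a carrier of small neutral amino acids, was at 7.82, 7.77 and 8.32 in double knockouts and 6.34, 6.82 and 6.28 in KEAP1 knockouts. The changes were 1.39 for Lpl and 1.49 for Slc1a4. Sgo2a, which guards the cohesion of centromeres in dividing cells, differed by 1.72 and Cdkn2c, an inhibitor of the kinases CDK4 and CDK6, by 0.77. Pklr, the pyruvate kinase of liver and red cells, was at 8.99, 8.91 and 8.47 in double knockouts, against 10.11, 10.62 and 9.89 in KEAP1 knockouts (change -1.41 ± 0.20, adjusted p = 0.0623). Sdr9c7, a short-chain dehydrogenase, was at 6.37, 6.42 and 5.99 in double knockouts and 7.18, 7.26 and 7.21 in KEAP1 knockouts. All 12 genes had groups that did not overlap. Lpl is also in the list of fat cell markers and was highest on double knockout 3. Without that array the changes were 1.46 for Slc7a11, 1.48 for Marco, 1.23 for Lpl, 1.32 for Slc1a4 and -1.26 for Pklr. In limma the adjusted p was then 0.0562 for Lpl and 0.0666 for each of the others in that sentence.

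**Figure D1:**
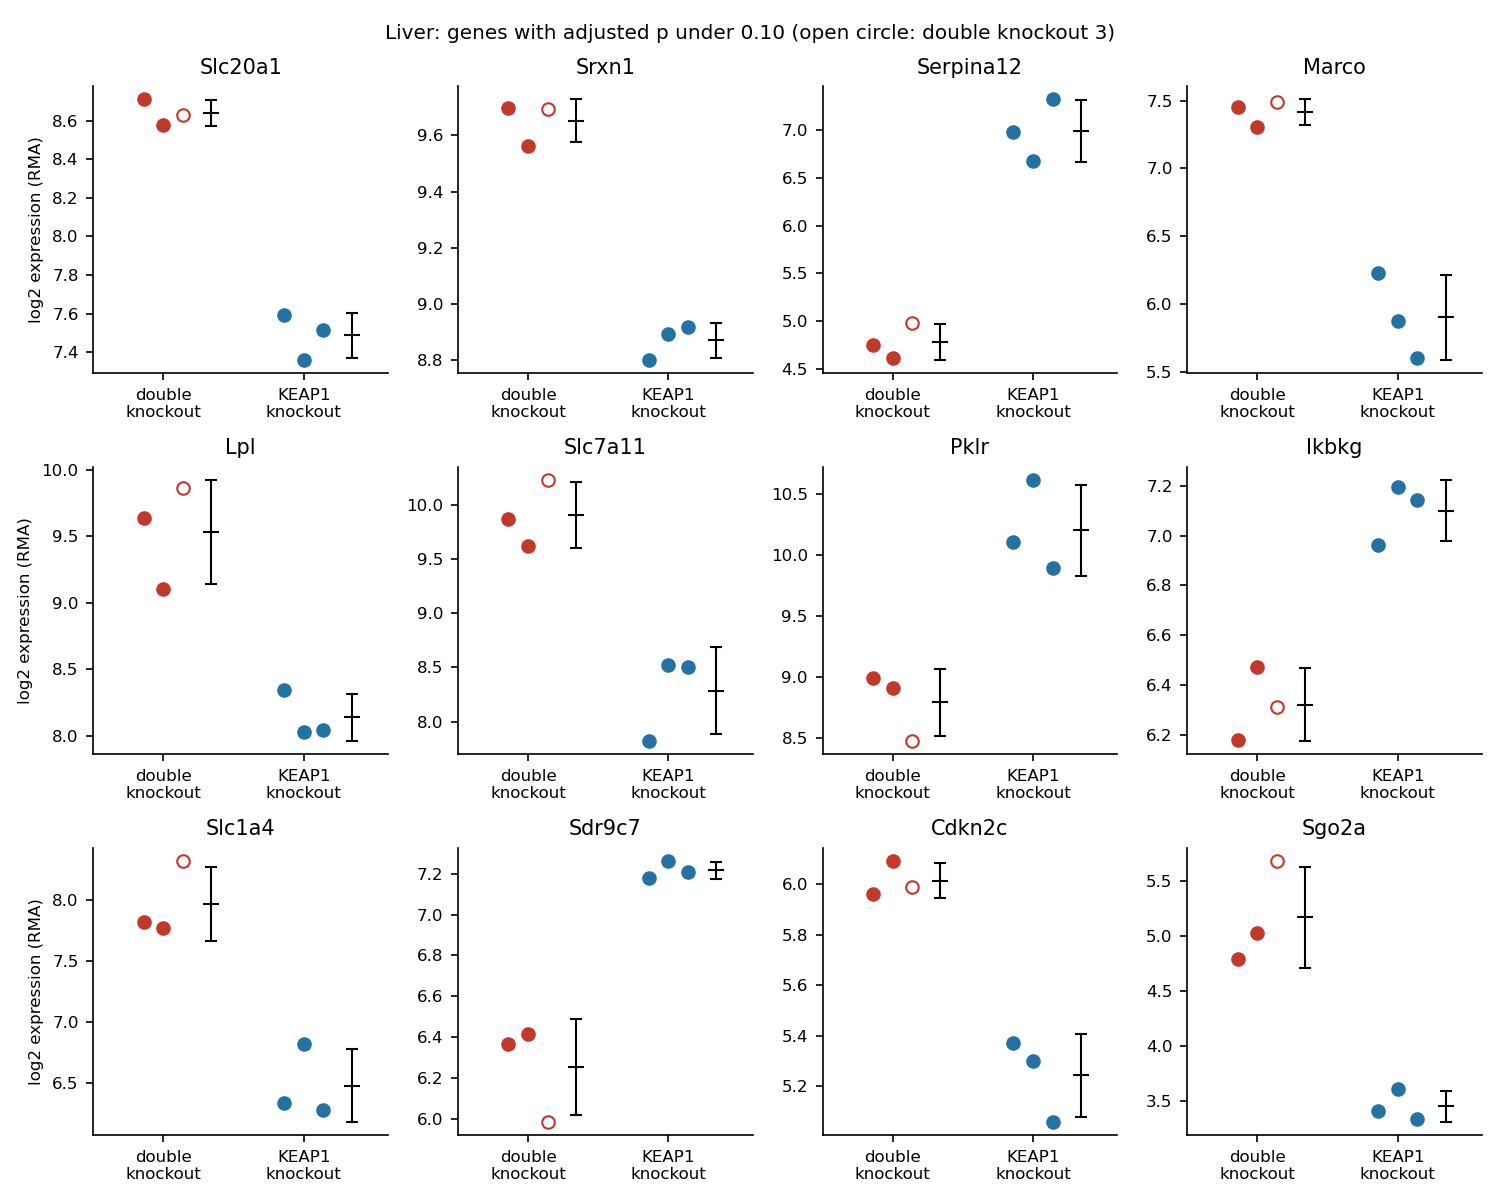
Log2 expression (RMA) of the 12 genes with an adjusted p under 0.10 on each liver array of the double knockout (red) and the KEAP1 knockout (blue); bars are the mean ± SD of 3 arrays and the open circle is double knockout 3. The groups are separate in every panel, and double knockout 3 is the highest double knockout array for Slc7a11 (10.23), Lpl (9.86), Slc1a4 (8.32), Marco (7.49) and Sgo2a (5.68) and lies among the others for Slc20a1 (8.63).

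Leaving out double knockout 3 added 3 called genes. The transcript 9430069I07Rik was at 9.45 and 8.31 on double knockouts 1 and 2, at 2.89 on double knockout 3 and at 2.56, 2.31 and 2.47 on the KEAP1 knockouts. It was also between 2.17 and 2.97 on all NEMO knockout and control livers, so the high level was seen on those 2 arrays of the 12 liver arrays. Its change was 4.44 ± 1.28 with all arrays (adjusted p = 0.349) and 6.44 without double knockout 3 (adjusted p = 1.08e-05). Mpped1, a putative metallophosphoesterase, was at 6.11, 6.19 and 5.34 in double knockouts and 4.53, 4.32 and 4.62 in KEAP1 knockouts (without double knockout 3, change 1.66, adjusted p = 0.00357). Rab3b, a small GTPase of secretory vesicles, was at 4.78, 4.82 and 3.98 in double knockouts and 3.66, 3.57 and 3.51 in KEAP1 knockouts (without double knockout 3, change 1.22, adjusted p = 0.0442).

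Larger differences, called or not, were more often upward. Groups that did not overlap were found for 2999 genes, 15.9% of those tested: 1393 were higher in the double knockout (7.4%) and 1606 lower (8.53%). With a change of at least 1 log2 unit as well, 102 were higher (0.542%) and 15 lower (0.0797%). Of the 102, 58 kept a change of at least 1 without double knockout 3, and 62 were called higher in cultured hepatocytes, as were 2.79% of all genes. Of the 15, 8 kept it and 5 were called lower in hepatocytes, as were 0.786% of all genes. The genes in this paragraph were chosen after their values were seen. The cornified envelope gene Sprr1a was at 8.81, 8.57 and 9.02 in double knockout livers, against 7.11, 4.92 and 6.94 in KEAP1 knockout livers (change 2.47, adjusted p = 0.219). The chemokine Cxcl14 was at 6.54, 6.77 and 7.18 in double knockouts and 4.76, 4.25 and 4.90 in KEAP1 knockouts (change 2.19, adjusted p = 0.1). Hsd3b5, a male-biased hydroxysteroid dehydrogenase of liver, was at 3.45, 4.21 and 3.16 in double knockouts and 4.74, 5.62 and 7.66 in KEAP1 knockouts (change -2.40 ± 0.71, adjusted p = 0.359).

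For the pathways around these genes, 42 lists were counted. Some genes are in several lists, such as Lpl in the recruited macrophage and fat cell lists, so the lists are not independent. Srxn1 was the single list member called, so the lists are described by the members whose groups did not overlap, read against 7.4% higher and 8.53% lower over all genes (13.2% and 13.1% without double knockout 3), and by their median change, against -0.01 over all genes. This measure was added after the low count of calls was seen.

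Among the NRF2 targets, 10 of 29 measured genes were higher in all double knockouts than in any KEAP1 knockout and 1 was lower (13 and 1 without double knockout 3). The median change was 0.12. Besides Srxn1 and Slc7a11, the aldose reductase relative Akr1b8 was at 6.76, 6.83 and 7.71 in double knockouts and 5.95, 6.03 and 6.74 in KEAP1 knockouts. Gpx2, a glutathione peroxidase, differed by 0.59, Mgst3, a microsomal glutathione transferase, by 0.54, and the efflux pump Abcc4 by 0.57. The quinone reductase Nqo1 was at 9.25 to 9.36 in double knockouts and 8.60 to 9.01 in KEAP1 knockouts (change 0.41, adjusted p = 0.391). The 1 lower member was the aldehyde dehydrogenase Aldh3a1 (change -0.30), at 2.97 to 3.15 in double knockouts and 3.31 to 3.43 in KEAP1 knockouts. Both groups were below the array medians of 4.03 to 4.23, so this is a difference at a low level.

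NF-kB components and targets had separated groups in both directions, as had 7.4% higher and 8.53% lower of all genes. Of 18 pathway components, 1 was higher (5.56%) and 3 were lower (16.7%) with groups that did not overlap. Ikbkg had the largest change. The other largest was Map3k14, the kinase NIK of the alternative pathway, at 5.05, 5.21 and 5.17 in double knockouts and 4.87, 4.14 and 4.57 in KEAP1 knockouts (change 0.62, adjusted p = 0.35). Of 23 targets, 1 was higher and 3 were lower, with a median change of -0.10. The serum amyloid Saa3 was at 4.27, 4.32 and 4.90 in double knockouts and 5.32, 4.52 and 7.44 in KEAP1 knockouts, and the chemokine Cxcl1 at 5.28, 5.42 and 5.07 in double knockouts and 5.60, 5.00 and 8.18 in KEAP1 knockouts. Both were high on KEAP1 knockout 3 alone. That array had the highest mean level of these arrays for the NF-kB targets and for the acute phase proteins. For the latter, KEAP1 knockout 2 was the lowest. The mean log2 level of the NF-kB targets was 5.66 to 5.76 in double knockouts and 5.73, 5.43 and 6.39 in KEAP1 knockouts, and that of 24 acute phase proteins 10.01 to 10.52 in double knockouts and 10.28, 9.52 and 10.83 in KEAP1 knockouts. Without KEAP1 knockout 3, an alternative added after seeing this, 6 of the 23 targets were higher and 3 lower, with a median change of -0.01, against 13% higher and 14.7% lower over all genes (27.7% in either direction). The acute phase list had 0 of 24 separated with all arrays, and 4 higher and 0 lower without KEAP1 knockout 3. Of 18 genes of death receptor signalling, 3 were higher and 2 lower. Its largest change was that of Tnfrsf10b, the mouse TRAIL receptor, at 5.18, 5.17 and 6.41 in double knockouts and 4.74, 4.67 and 4.97 in KEAP1 knockouts.

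Cell cycle genes had the largest share of separated members of the 42 lists, with 19 of 24 higher and 0 lower, against the 7.4% over all genes, and a median change of 0.87. Without double knockout 3 the median was 0.73 and 20 were higher. None passed the test at an adjusted p under 0.05 in limma, while 17 were higher at an unadjusted p under 0.05, as were 4.99% of all genes. Topoisomerase Top2a, which untangles replicated DNA, was at 5.60, 6.00 and 6.07 in double knockouts, against 4.69, 3.79 and 4.24 in KEAP1 knockouts (change 1.65 ± 0.32, adjusted p = 0.2). Cyclin A2 (Ccna2) was at 5.63, 6.15 and 6.44 in double knockouts and 4.70, 4.23 and 4.61 in KEAP1 knockouts (change 1.56, adjusted p = 0.3). The mean log2 level of the list was 5.41 to 5.83 on the double knockout arrays and 4.68 to 4.81 on the KEAP1 knockout arrays.

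Both macrophage lists had a median change above 0. Of 18 markers of recruited and lipid-associated macrophages, 9 were higher and 0 lower, both with and without double knockout 3. Their median change was 0.56 (0.50 without double knockout 3). The elastase Mmp12 was at 8.15, 7.45 and 7.58 in double knockouts and 6.12, 3.77 and 6.45 in KEAP1 knockouts (change 2.28 ± 0.56, adjusted p = 0.31). Gpnmb, a glycoprotein of lipid-laden macrophages, was at 5.86, 4.88 and 5.73 in double knockouts and 4.21, 3.64 and 3.39 in KEAP1 knockouts (change 1.74, adjusted p = 0.15). Both genes were above every KEAP1 knockout array on each double knockout array. Of 15 Kupffer cell markers, 2 were higher, Marco and the surface receptor Adgre1, and 1 was lower, the haemoglobin scavenger receptor Cd163. Without double knockout 3, 7 were higher and 1 lower. The median change of the Kupffer list was 0.35, and 0.44 without double knockout 3. Cd163 was at 5.63, 5.47 and 4.92 in double knockouts and 6.26, 5.72 and 5.76 in KEAP1 knockouts. Neutrophil markers had 1 of 12 higher and 0 lower, with mean log2 levels of 3.59 to 3.88 in double knockouts and of 3.34, 3.25 and 4.03 in KEAP1 knockouts. Without KEAP1 knockout 3, the highest of these arrays, 8 of 12 were higher, as were 13% of all genes. That array was left out after its level was seen, which favours such a move. The list means were low, at or below the array medians of 4.03 to 4.23. Markers of T and natural killer cells had 0 of 17 separated in either direction.

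Most collagen and matrix genes had separated groups, and their median change was larger with double knockout 3 than without it. Of 27 collagen and matrix genes, 17 were higher and 0 lower, both with and without that array, but the median change was 0.71 with it and 0.36 without it. Collagen Col1a1 was at 7.66, 7.70 and 9.39 in double knockouts and 6.74, 6.61 and 6.99 in KEAP1 knockouts (change 1.47, and 0.90 without double knockout 3). The proteoglycan Lum was at 6.68, 6.70 and 8.29 in double knockouts and 5.56, 4.90 and 5.86 in KEAP1 knockouts (change 1.78, and 1.25 without double knockout 3). In both genes double knockouts 1 and 2 were close to each other and double knockout 3 far above them. The stellate cell list had 7 of 19 higher and 1 lower (median 0.37, and 0.22 without double knockout 3), with smooth muscle actin Acta2 at 7.65, 8.01 and 9.83 in double knockouts and 6.54, 6.30 and 7.31 in KEAP1 knockouts. The matrix protease list had 6 of 15 higher and 0 lower, with medians of 0.60 and 0.29. Timp1, an inhibitor of these proteases, was at 5.11, 4.93 and 5.79 in double knockouts and 4.15, 3.82 and 4.24 in KEAP1 knockouts. Over the same arrays the mean log2 level of the 16 fat cell markers was 5.29 to 7.25 in double knockouts and 5.33 to 5.52 in KEAP1 knockouts, and their summed signal 5581 to 6220 and 5979 to 7118. That of the 14 bile duct markers was 4.26 to 5.81 in double knockouts and 4.40 to 4.86 in KEAP1 knockouts, with summed signals of 965 to 1572 and 931 to 1135. On double knockouts 1 and 2 the fat hormones Adipoq and Retn lay at 2.32 to 3.10, within the 2.33 to 3.42 of the KEAP1 knockouts or just below, and the part of other cell types in the matrix differences with double knockout 3 was not tested.

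**Figure D2:**
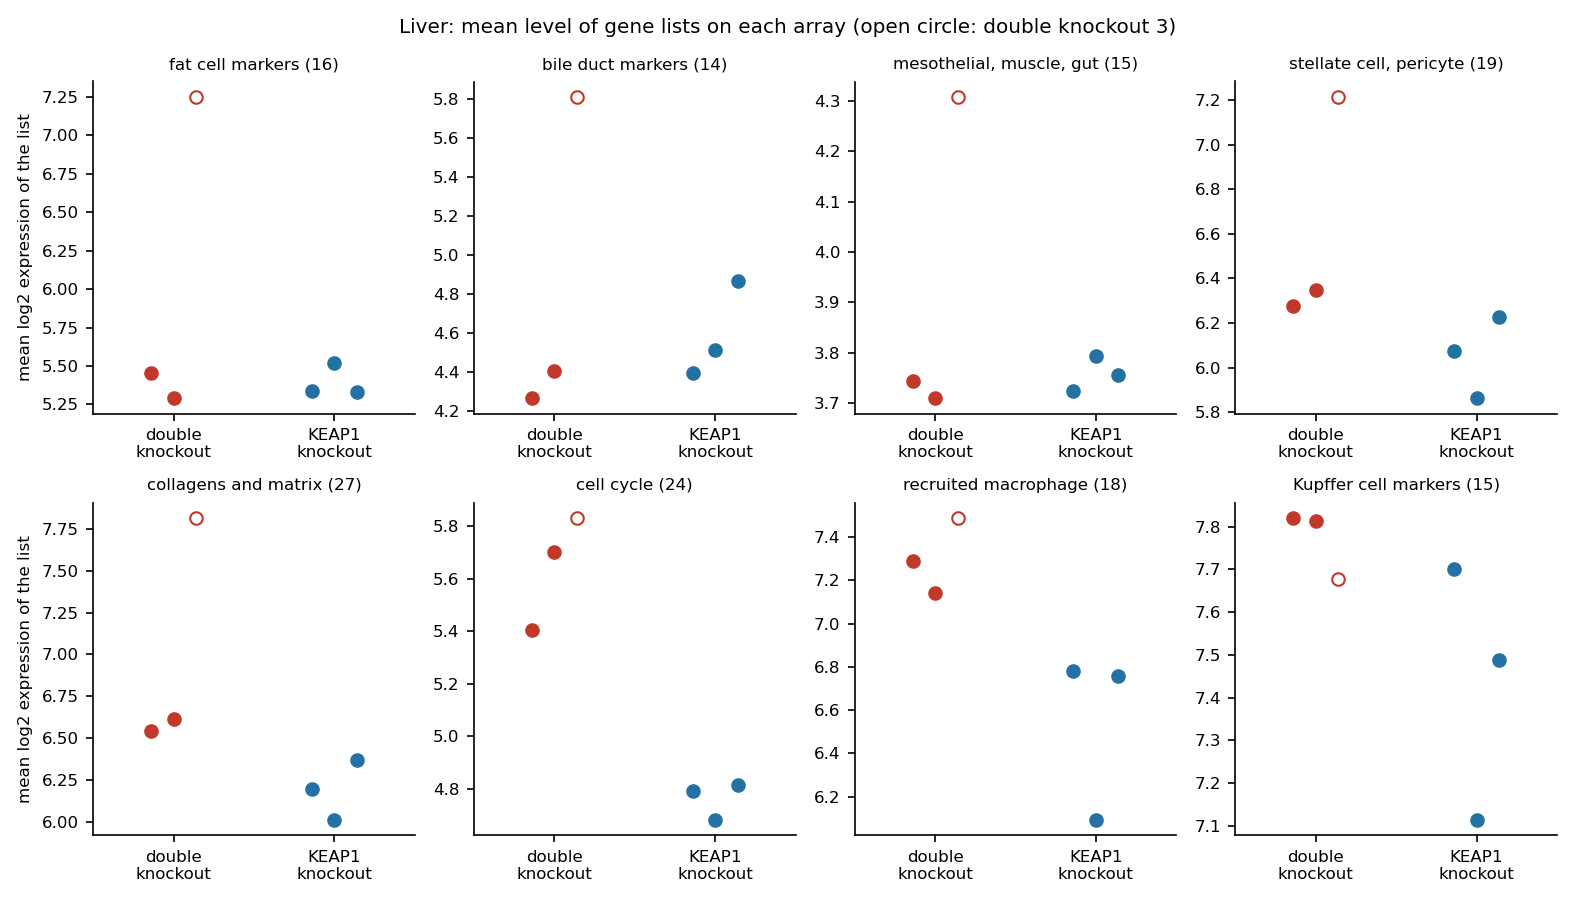
Mean log2 expression of 8 gene lists on each liver array of the double knockout (red) and the KEAP1 knockout (blue), with the number of measured genes in brackets and double knockout 3 as an open circle. Double knockout 3 is far above all other arrays for fat cell markers (7.25) and bile duct markers (5.81), while for the cell cycle list all 3 double knockout arrays (5.41 to 5.83) lie above all KEAP1 knockout arrays (4.68 to 4.81).

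The list of tubulins and cytoskeletal genes of stressed hepatocytes had 11 of 20 higher and 0 lower, with a median change of 0.60 and 0.24 without double knockout 3. The keratin partners Krt8 and Krt18 of hepatocytes differed by 0.75 each, with Krt8 at 10.32, 10.32 and 10.62 in double knockouts and 9.73, 9.38 and 9.90 in KEAP1 knockouts. Tubb6, a beta-tubulin, was at 6.64, 6.42 and 6.75 in double knockouts and 5.13, 4.90 and 6.16 in KEAP1 knockouts. Immediate early and AP-1 factors had 6 of 17 higher and 1 lower, with medians of 0.43 and 0.16. Jun, an AP-1 subunit, was at 7.41, 7.22 and 8.00 in double knockouts and 6.12, 6.36 and 6.82 in KEAP1 knockouts (change 1.11 ± 0.22, adjusted p = 0.22), and the antiproliferative Btg2 at 6.14, 6.02 and 6.52 in double knockouts and 5.22, 4.87 and 5.71 in KEAP1 knockouts.

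Several metabolic lists leaned lower. Of 14 genes of gluconeogenesis, glycolysis and glycogen, 0 were higher and 5 lower, with a median change of -0.38 (-0.21 without double knockout 3). Besides Pklr, Gys2, the glycogen synthase of liver, was at 8.95, 8.89 and 8.69 in double knockouts and 9.21, 9.46 and 9.24 in KEAP1 knockouts. Of 23 genes of fatty acid oxidation and PPARalpha targets, 0 were higher and 9 lower (median -0.19, and -0.13 without double knockout 3). Cyp4a31, a fatty acid hydroxylase, was at 6.76, 7.18 and 6.95 in double knockouts and 8.06, 7.34 and 7.46 in KEAP1 knockouts, and the hormone Fgf21 at 4.53, 4.13 and 4.43 in double knockouts and 4.87, 4.78 and 5.38 in KEAP1 knockouts. Clock genes had 5 of 16 lower and 0 higher (median -0.25), with Ciart at 4.02, 3.93 and 3.88 in double knockouts and 4.39, 4.77 and 4.04 in KEAP1 knockouts. The labels used here give no hour of sampling. Of 19 hepatocyte identity genes, 5 were lower and 0 higher, but the median change was only -0.05 (-0.01 without double knockout 3). Among the 5 was the bile acid receptor Nr1h4, at 8.68, 8.76 and 8.55 in double knockouts and 8.97, 9.11 and 9.10 in KEAP1 knockouts. The bile acid list had 3 of 26 higher and 6 lower (median -0.11), and 5 and 6 without double knockout 3 (median 0.02). Genes of cholesterol synthesis lay the other way, with 4 of 17 higher and 0 lower (median 0.08), and 11 and 0 without double knockout 3 (median 0.16). Slc51b, a subunit of the basolateral bile acid exporter, was at 7.09, 6.37 and 6.76 in double knockouts and 6.27, 4.63 and 5.25 in KEAP1 knockouts, and Cyp8b1, which makes cholic acid, at 8.95, 8.91 and 7.92 in double knockouts and 9.73, 9.91 and 9.43 in KEAP1 knockouts.

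**Figure D3:**
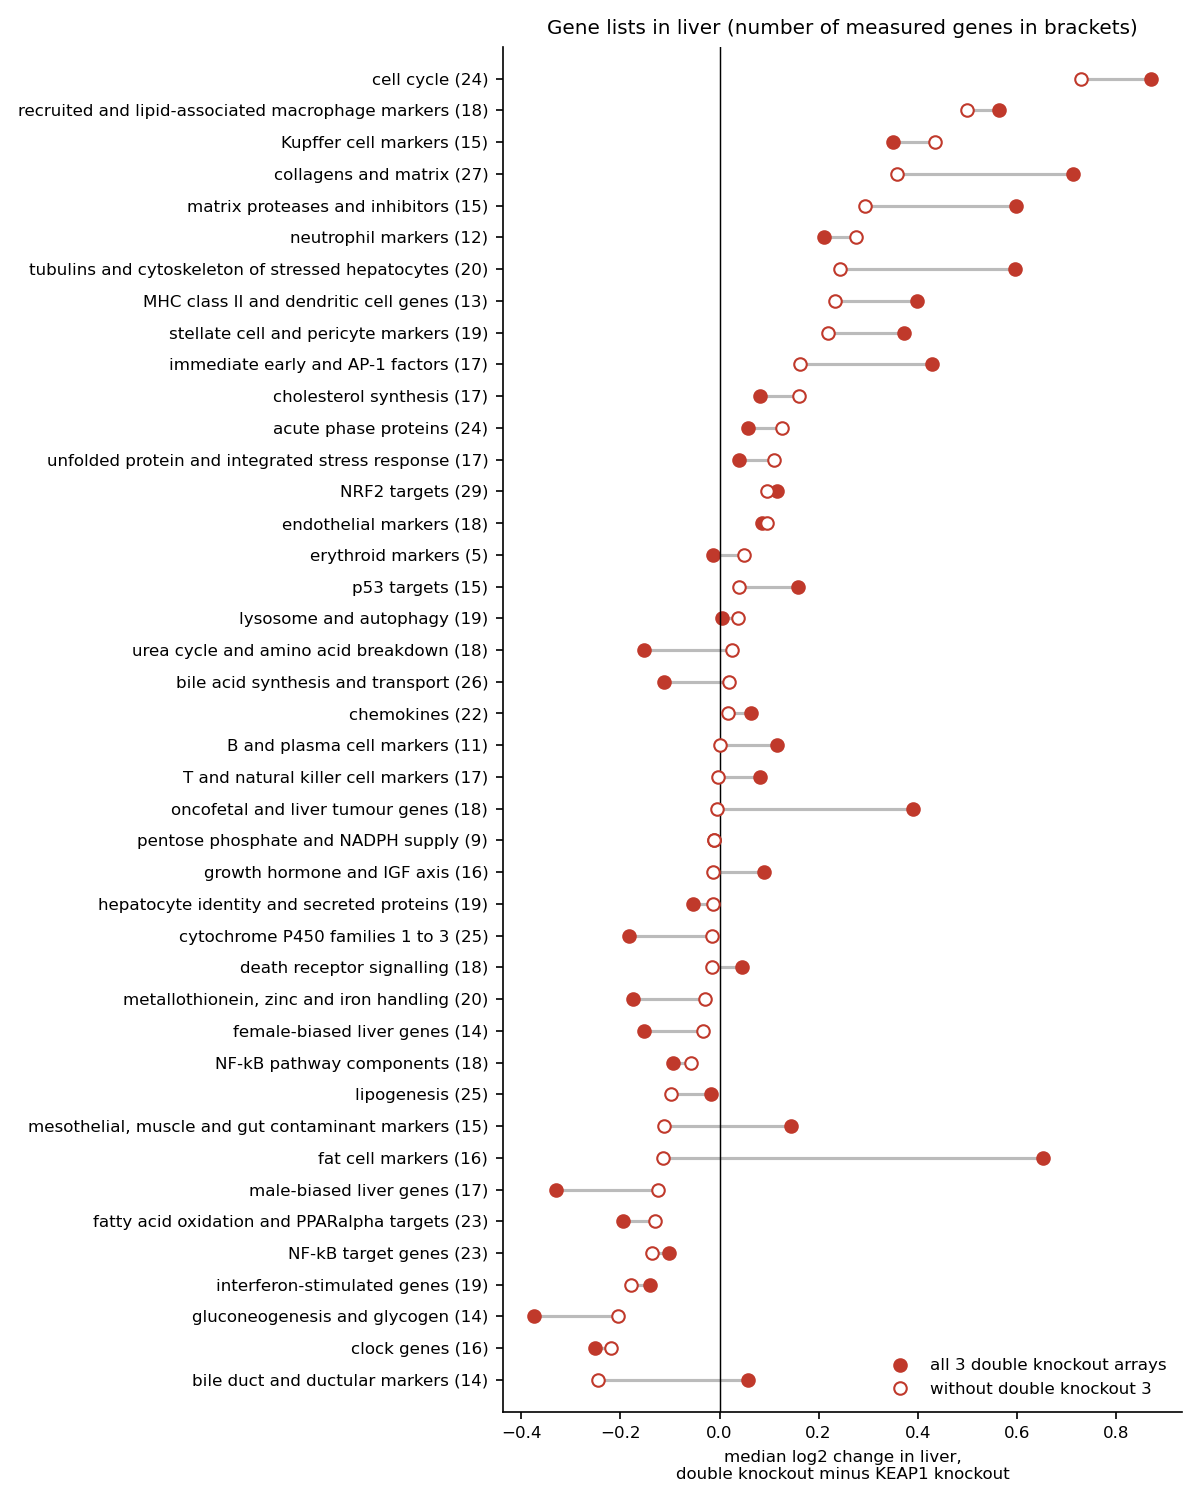
Median log2 change in liver, double knockout minus KEAP1 knockout, for each of the 42 gene lists with all 3 double knockout arrays (filled) and without double knockout 3 (open); brackets give the number of measured genes. The cell cycle list has the highest median either way (0.87 and 0.73), the fat cell list moves from one side of 0 to the other (0.65 and -0.11), and the matrix list is at 0.71 and 0.36.

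Cultured hepatocytes gave a much longer list for the same contrast. There 673 genes were called, 525 higher and 148 lower (3.58% of those tested), and 864 (4.59%) without hepatocyte double knockout 3. Without KEAP1 knockout 1, KEAP1 knockout 3 or double knockout 2 the count was 382, 326 or 278. Of the 673 genes, 646 (96.0%) had the same sign in liver, although no array is shared, and 635 had it without liver double knockout 3. The share with the same sign over all genes was not counted. Of the 673, 325 (48.3%) had liver groups that did not overlap in the same direction, against 7.4% higher and 8.53% lower over all genes. The median liver change was 0.53 for the genes called higher in hepatocytes, where their median was 1.00, and -0.39 for those called lower, where it was -0.73. Without liver double knockout 3 the 2 liver medians were 0.38 and -0.30. Across the 18820 genes the 2 changes had a Pearson r of 0.54, and 0.47 without liver double knockout 3. Genes are not independent replicates, so this is a description.

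In hepatocytes list members could be counted by the test, against 2.79% of genes called higher and 0.786% called lower. The median change of a list had the same sign in liver and hepatocytes for 30 of the 42 lists, some of which share members, and the opposite sign for 12. The largest gap among the 12 was that of the 14 female-biased genes, with a median of -0.15 in liver and 0.85 in hepatocytes. That hepatocyte median includes hepatocyte double knockout 3, the array with Xist, and was not taken without it. The gap is therefore not read as a difference between tissues. With or without that array, 0 of these genes were called in hepatocytes in limma. Of 24 cell cycle genes, 16 rose and 1, the repressor E2f8, fell. Of 29 NRF2 targets, 11 rose, Slc7a11 by 3.45 and Srxn1 by 1.24 log2 units. Of 18 recruited macrophage markers 14 rose, and of 15 Kupffer cell markers 10, with Marco at 8.18, 8.22 and 7.85 in double knockout hepatocytes and 5.27, 5.56 and 4.74 in KEAP1 knockout hepatocytes. The hepatocyte cultures thus carried macrophage transcripts, and the part of such cells in the hepatocyte calls was not tested. Of 27 matrix genes 11 rose, and of 24 acute phase proteins 10, a list with 0 members separated in liver. Of 16 clock genes 0 were called, and of 17 AP-1 and immediate early factors 1 rose. Of 17 male-biased liver genes 7 fell, Hsd3b5 by 5.80 log2 units. With hepatocyte double knockout 3, the array with Xist, left out, 6 fell (1.11% of all genes did), and Hsd3b5 changed by -5.25.

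The difference between tissues was tested directly, as the liver change minus the hepatocyte change. In limma 0 genes were called (0% of those tested), while 902 had an unadjusted p under 0.05. For Slc7a11 the difference was -1.82 ± 0.50 (adjusted p = 0.995) and for Marco -1.38 ± 0.30 (adjusted p = 0.638). Without liver and hepatocyte double knockout 3, 1 gene (0.00531%) was called, 9430069I07Rik, which was at 2.53 to 2.59 in double knockout hepatocytes and 2.07 to 2.74 in KEAP1 knockout hepatocytes (difference 6.30). A missed threshold does not show that liver and hepatocytes responded alike.

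**Figure D4:**
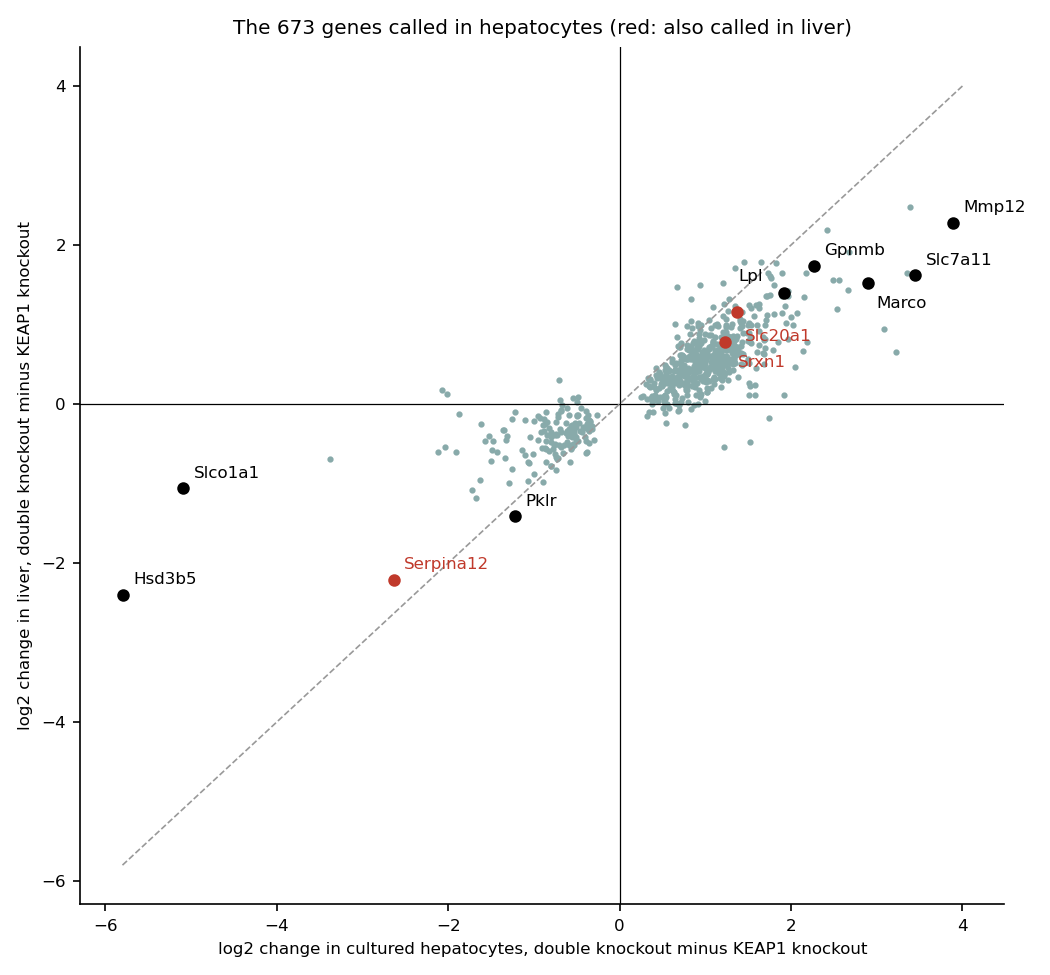
Log2 change in cultured hepatocytes (x) and in liver (y), double knockout minus KEAP1 knockout, for the 673 genes called in hepatocytes, with equality as a dashed line. Most points (646) have the same sign in both tissues, genes called higher lie below the line as a group (medians 0.53 in liver and 1.00 in hepatocytes), and the 3 genes called in liver are red. The points include liver double knockout 3, without which the liver median of the genes called higher was 0.38.

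Whether NEMO loss acted differently in liver with and without KEAP1 was tested as an interaction. This was the change of the double knockout against the KEAP1 knockout minus that of the NEMO knockout against control. The control label, NEMOf/f, names no deletion, so NEMO knockout and control livers may differ in Cre as well as in NEMO. In that change the 2 cannot be told apart. The interaction was called for 2 genes (0.0106% of those tested), both lower. Akr1c18, a reductase of progesterone, was at 3.39, 3.45 and 4.10 in double knockout livers, 3.19, 2.99 and 2.66 in KEAP1 knockout livers, 7.97, 7.32 and 8.48 in NEMO knockout livers and 3.56, 3.51 and 3.51 in control livers. The interaction was -3.70 ± 0.38 (adjusted p = 0.0044, limma). Gldn, the adhesion protein gliomedin, was at 2.79, 2.76 and 2.53 in double knockouts, 2.94, 2.74 and 2.81 in KEAP1 knockouts, 6.08, 5.29 and 5.62 in NEMO knockouts and 2.53, 3.02 and 2.52 in controls (interaction -3.11 ± 0.28, adjusted p = 0.0022). Both were high in the NEMO knockout and in no other genotype of liver.

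Without the array labelled control 3 and without double knockout 3, 65 genes were called, 12 higher (0.0638%) and 53 lower (0.282%), or 0.345% in all. Without control 3 alone there were 14 (0.0744%), and without double knockout 3 alone 8 (0.0425%). Among those lower was cyclin D1 (Ccnd1), which drives entry into the cell cycle, at 6.86, 6.72 and 8.10 in double knockouts, 6.25, 6.66 and 6.78 in KEAP1 knockouts, 9.71, 9.07 and 9.67 in NEMO knockouts and 6.20, 6.35 and 6.97 in controls. Its interaction without the 2 arrays was -2.98 ± 0.27 (adjusted p = 0.00128). The NRF2 gene Nfe2l2 was at 9.56, 9.40 and 9.61 in NEMO knockouts and 8.35, 8.42 and 8.50 in controls, and its interaction without the 2 arrays was -1.08 ± 0.13 (adjusted p = 0.00331). Without these arrays the cell cycle list had a median change of 0.73 in the double knockout against the KEAP1 knockout and of 2.02 in the NEMO knockout against control. The matrix list had 0.36 and 1.19, and the recruited macrophage list 0.50 and 1.54. The interaction was called for 1 of 24, 4 of 27 and 1 of 18 of their members, so for most members the difference between these changes did not pass the test.

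**Figure D5:**
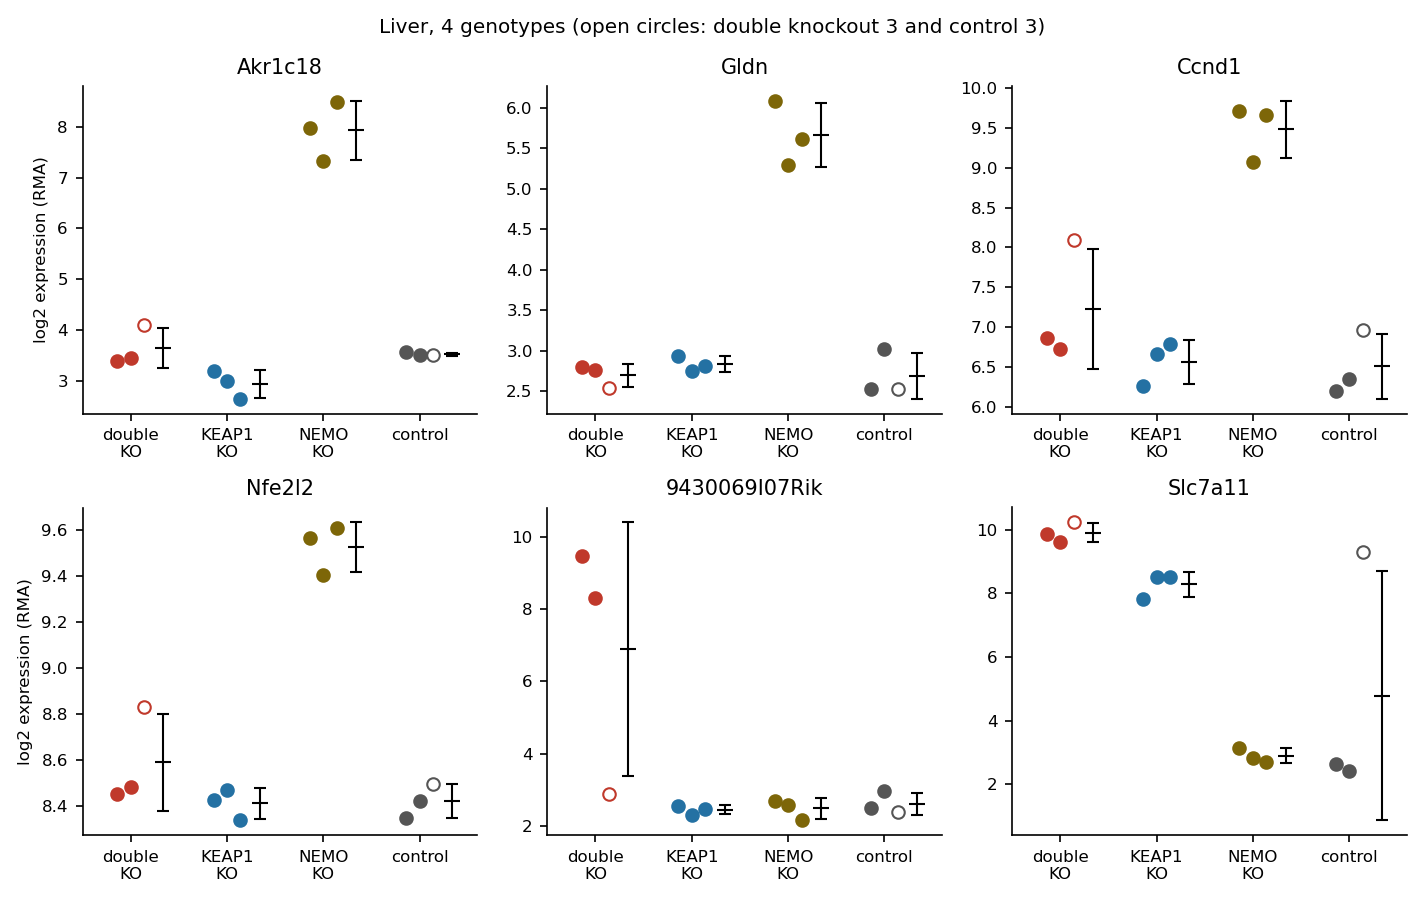
Log2 expression (RMA) of 6 genes on each liver array of the double knockout, KEAP1 knockout, NEMO knockout and control; bars are the mean ± SD of 3 arrays and open circles are double knockout 3 and the array labelled control 3. Akr1c18, Gldn, Ccnd1 and Nfe2l2 are highest in the NEMO knockout, 9430069I07Rik is high on 2 double knockout arrays only, and Slc7a11 is at 9.29 on the array labelled control 3.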

How the data were processed

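RNA of whole livers and cultured hepatocytes was measured on 1-colour Affymetrix mouse arrays. The authors deposited log2 values, and RMA is the tool that the submitters' processing notes name, without version or options. The log2 values ran from 0.51 to 13.62, with array medians of 4.03 to 4.23, and no scan dates were available. Of 35556 probe sets, 21218 had 1 gene symbol in the platform annotation and were used, with the probe set of highest mean for each of 18820 genes. No filter on low values was applied, and for arrays the 3 samples per group limit the precision. Each label names a mouse but not whether arrays of a group came from different mice, so p-values measure the spread between these samples, which may be technical.

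Changes are double knockout minus KEAP1 knockout, fitted with limma 3.58.1 in R 4.3.3 (lmFit, eBayes with trend), two-sided, adjusted over 18820 genes and called at an adjusted p under 0.05. The liver fit used the 9 knockout liver arrays, the hepatocyte fit the 9 knockout hepatocyte arrays, the tissue difference these 18, and the interaction the 12 liver arrays. SE is that of the fit. The fits were tested on simulated data. Same-numbered double knockout and KEAP1 knockout livers had residual correlations of 0.09, 0.10 and 0.23, the first under 0.1, so numbers were not used as pairs.

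The arrays, lists and tests were chosen with earlier results of these data known. Named genes were up to 15 in each direction that passed with and without double knockout 3 and had separate groups, up to 4 called members of a list or else the 2 with the largest change, up to 8 in each direction for the tissue difference and the interaction, and genes that check the labels. Others named were chosen after their values were seen. Promoter sequences are RefSeq's on GRCm38.p6. Alternatives were other arrays, filters, normalization, moderation, weights and a replicate block.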

Additional observations from a re-analysis of the deposited data

Results flagged for a closer look

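By the test of the interaction, double knockout against KEAP1 knockout differed from NEMO knockout against control for several genes. The latter change may also hold a difference in Cre. With all 12 liver arrays the genes were Akr1c18, with an interaction of -3.70, and Gldn, with -3.11 log2 units. Their levels in the 4 genotypes are given above.

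Without the array labelled control 3 and double knockout 3, the genes with the largest lower values were Akr1c18 (-3.92), Prelid2 (-3.41), Ccnd1 (-2.98), Gldn (-2.95), Ifi27l2b (-2.66), S100a11 (-2.43), Sdr16c5 (-2.21) and Mtmr11 (-2.21). Prelid2 was at 4.45 and 4.13 on double knockouts 1 and 2, 3.76, 3.44 and 5.20 on KEAP1 knockouts, 6.56, 6.75 and 6.94 on NEMO knockouts and 2.96 and 3.41 on controls 1 and 2.

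The genes with the largest higher values under the same choice of arrays were 9430069I07Rik (6.67), Hamp2 (2.17), B3galt1 (1.91), Aqp4 (1.79), Mpped1 (1.60), Sprr2b (1.57), Adh6-ps1 (1.57) and Sntg2 (1.52). The galactosyltransferase gene B3galt1 was at 7.39 and 7.28 on double knockouts 1 and 2, 7.26, 7.60 and 7.81 on KEAP1 knockouts, 7.40, 6.99 and 6.67 on NEMO knockouts and 9.24 and 9.05 on controls 1 and 2.

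The liver change minus the hepatocyte change was 6.30 log2 units for 9430069I07Rik without liver and hepatocyte double knockout 3, the 1 gene called in that difference.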

How the results depend on the processing

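The number of genes called in double knockout against KEAP1 knockout liver was 3 and depended on the setting. It was 8 among genes with a group mean above 5, 21 with array weights, 9 with the other liver arrays but control 3 added, 10 without double knockout 3 as well, 0 with all 12 liver arrays and 12 at an adjusted p under 0.10, an alternative added after seeing the data. Leaving out 1 array gave 1 to 33. The fit with a replicate block gave 30 (23 higher and 7 lower), although the numbers did not meet the rule for pairs. For the hepatocyte contrast leaving out 1 array gave 278 to 864 called genes, and the replicate block gave 851 against 673. For the tissue difference the count was 0 and became 1 with the replicate block, 1 without liver and hepatocyte double knockout 3, and 0 to 4 when 1 array was left out. For the interaction the count was 2 and became 1 among genes with a group mean above 5, 9 with array weights, 4 with the replicate block, 65 without control 3 and double knockout 3, and 2 to 14 when 1 array was left out. The cause of these moves was not tested. Over 20 alternatives Slc20a1 was called in 19, Serpina12 in 16 and Srxn1 in 10, in each with the same direction. Their adjusted p ranged from 0.000394 to 0.642 for Slc20a1, 0.00124 to 0.641 for Serpina12 and 0.0111 to 0.715 for Srxn1, each highest with all 12 liver arrays. Precision is limited by 3 arrays a group, 1 of them in doubt. In simulated data for the liver contrast over 18820 genes, 96% of 50 rises and 90% of 50 falls of 1 log2 unit were recovered. The simulated noise was independent between arrays and held no array like double knockout 3. These shares therefore do not give the share of real changes that the fit would call. Of the 102 real genes higher by at least 1 log2 unit with separate groups, 1 was called.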
